A study of Mus musculus with 6 samples.

Results

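Aminoacyl-tRNA synthetases, the enzymes that attach each amino acid to its tRNA, were examined in cultured calvarial preosteoblasts. Members were the rows of the deposited table whose symbol is a single capital letter followed by ars, with or without a final 1 or 2, together with *Eprs*, *Farsa* and *Farsb*. The rule found 37 genes among the 17001 rows of the table. Symbols ending in 2 were taken as the mitochondrial enzymes (17 genes) and the other 20 as cytosolic or shared. RNA of preosteoblasts, the precursors of bone-forming osteoblasts, from 3-day-old mice was sequenced in 6 libraries. The control group held 3 libraries of the genotype NELL2 fx/fx, in which *Nell2* is floxed, and the cKO group held 3 libraries of the genotype Col1-cre; NELL2 fx/fx. Both groups carry the floxed allele, and the cKO group also carries a Cre recombinase driven by a Col1a1 promoter, which acts in cells of the osteoblast lineage. The cells of both groups were grown in α-MEM with fetal bovine serum and had no other treatment according to the labels. The comparison asks how the deletion of NELL2 bears on gene expression in these cells, and the labels do not say whether replicates came from separate animals or cultures, so p-values measure only the spread between these libraries.

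Every synthetase spends ATP to activate its amino acid and then passes it to the matching tRNA, which carries it to the ribosome. Cells hold a cytosolic set and a mitochondrial set, both encoded in the nucleus, and most amino acids have a separate gene for each set. *Gars* and *Kars* supply both compartments from a single gene, *Eprs* joins the glutamate and proline enzymes in one protein, and *Farsa* and *Farsb* encode the subunits of the cytosolic phenylalanine enzyme. Several cytosolic enzymes are held together in the multisynthetase complex, and many cytosolic synthetase genes are known targets of ATF4, the transcription factor of the amino acid response. Osteoblasts make large amounts of collagen and other matrix proteins, a task that draws on charged tRNAs.

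Levels are given as FPKM, the fragments of a transcript relative to its length and to all mapped fragments. Such values hold no read numbers, so the depth of each library is unknown, and their sum per library ran from 573307 to 606428. A row was tested when 3 or more libraries reached an FPKM of 1, which all 37 members did, among 11590 rows in all. The floxed gene *Nell2* had an FPKM of 3.17, 2.59 and 1.88 in control libraries 1, 2 and 3, and of 5.64, 1.61 and 5.74 in the cKO-labelled libraries 1, 2 and 3. *Nell2* was therefore not lower as a group in the cKO-labelled libraries, and directions below follow the labels. By qRT-PCR and western blot, the paper found NELL2 deleted in calvarial preosteoblasts of the Col1-cre genotype. The FPKM of a whole gene does not show which exons were read, so the deletion was not tested here. The preosteoblast markers were present, with *Runx2* between 10.98 and 14.71 and *Col1a1* between 8053 and 8578. Of the 5 markers 2 were lower in every cKO-labelled library at an unadjusted p under 0.05 in limma, *Sp7* with a log2 fold change of -0.48 and *Alpl* with -0.45, and 0 passed after adjustment. Over all genes tested, 7.76% were lower at that threshold and 11.8% were lower without overlap. Of the genes that mark other cell types, 6 of macrophages summed to an FPKM of 8.69 to 22.5 and 4 of endothelium to 1.53 to 3.19 over the 6 libraries. The 5 skeletal muscle genes summed to 29.8 to 55.0 in the controls and 40.6 to 47.0 in the cKO-labelled libraries. The 5 cartilage genes summed to 86.5 to 158.8 and 140.1 to 159.6, most of it *Col2a1*, with *Matn1* at 0 in all but 1 library. The 4 cartilage genes tested all had a log2 fold change above 0, as did 44.2% of all genes tested. *Comp* (0.65) and *Acan* (0.50) were higher at an unadjusted p under 0.05 in limma, with overlapping groups, and 0 passed after adjustment. Over all genes tested, 5.37% were higher at that threshold. The 4 epithelial genes summed to 0.46, 3.56 and 13.2 in the controls and to 42.5, 35.3 and 15.9 in the cKO-labelled libraries. The 4 adipocyte genes summed to 16.8, 22.3 and 25.5 in the controls and to 53.2, 89.5 and 57.2 in the cKO-labelled libraries, most of it *Fabp4* (log2 fold change 1.68), while *Adipoq* and *Plin1* stayed at or under 0.39. The epithelial and adipocyte sums were thus higher in every cKO-labelled library than in every control. The part of such cells, or of cartilage cells, in the values below was not tested. The 4 Y-linked genes summed to 49.6 to 54.7 FPKM in control replicate 3 and cKO replicates 1 and 3 and to 0.01 to 0.29 in the other 3 libraries, so male cells were present in 1 of 3 controls and 2 of 3 cKO-labelled libraries. The library labelled cKO replicate 1 lay nearer to the controls than the other 2 cKO libraries did in many of the genes described here. Values without it, given below beside those without each other library, depend on that same outcome and lend no support to a difference.

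The cytosolic synthetases were expressed well above the mitochondrial ones. FPKM is a level per length, so genes can be set side by side on it. The mean over the 6 libraries ran from 19.0 for *Wars* to 141 for *Gars* among the 20 cytosolic genes, with a median of 45.6. Among the 17 mitochondrial genes it ran from 2.20 for *Mars2* to 17.9 for *Iars2*, with a median of 5.51, so the ranges of the classes did not overlap. The cytosolic genes summed to 1069, 1041 and 1101 FPKM in control libraries 1, 2 and 3 and to 1141, 1285 and 1296 FPKM in the cKO-labelled libraries. The mitochondrial genes summed to 105, 109 and 106 FPKM in the controls and to 103, 108 and 106 FPKM in the cKO-labelled libraries. In each library the cytosolic sum was thus about an order of magnitude larger, at 9.55 to 10.3 times the mitochondrial sum in the controls and 11.1 to 12.3 times in the cKO-labelled libraries.

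The gap between the compartments differed widely by amino acid. In 17 pairs of a cytosolic gene with the mitochondrial gene for the same amino acid, the ratio of mean FPKM had a median of 8.56. It was 38.8 for asparagine, where *Nars* stood at 136 and *Nars2* at 3.502 FPKM. It was 29.4 for proline and 28.1 for glutamate, both of which are served by *Eprs* in the cytosol. Among these pairs the smallest ratios were 2.19 for isoleucine (*Iars* 39.3, *Iars2* 17.9) and 2.53 for phenylalanine (*Farsa* 25.5, *Fars2* 10.1). *Farsa* alone stood for the cytosolic phenylalanine enzyme. The gene of the other subunit, *Farsb*, had a lower mean of 20.7 FPKM and was not paired, so the order of the smallest ratios depends on this choice. *Iars2* shares 24.2% of its annotated exon bases with other genes on the opposite strand, among them *Rab3gap2*, and the use of strand in the counting is not given in the sources used here, so its level is less certain.

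**Figure D1:**
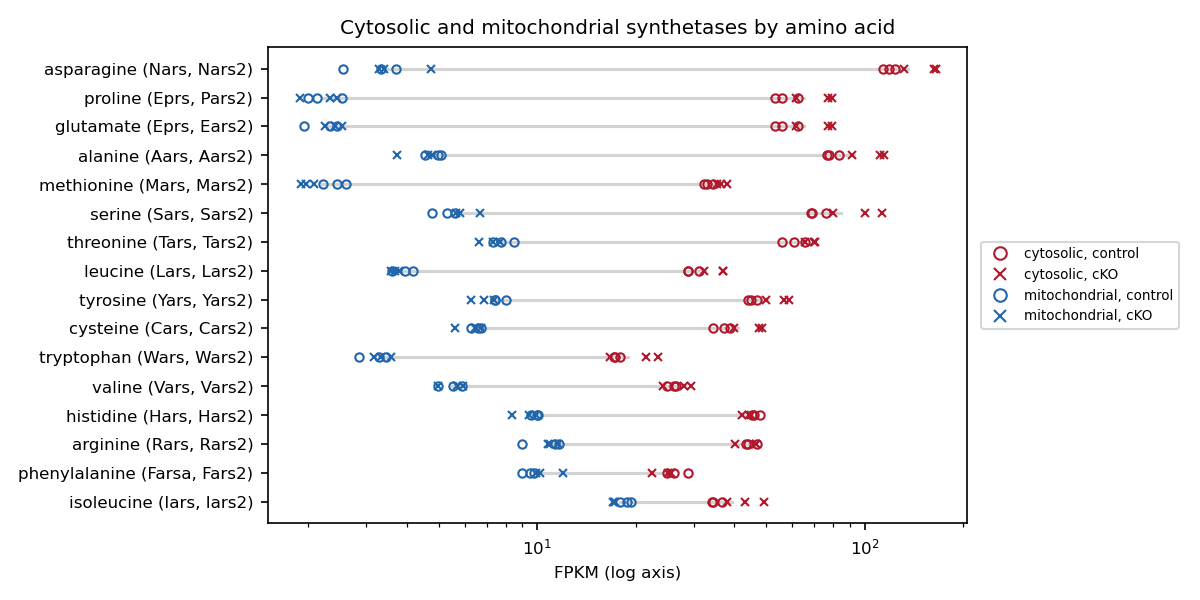
FPKM (log axis) of the cytosolic (red) and mitochondrial (blue) synthetase by amino acid, with 1 pair left out and control libraries as circles and cKO libraries as crosses. Among the pairs used, with *Farsa* alone for phenylalanine, the gap is widest for asparagine (ratio 38.8) and narrowest for isoleucine (ratio 2.19). Crosses lie to the right of circles for many red points but for few blue ones.

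Between the groups, cytosolic synthetases were mostly higher in the cKO-labelled libraries, while mitochondrial synthetases lay on both sides of 0. No member passed the test after adjustment over all genes. With limma and Benjamini-Hochberg adjustment, 0 of the 37 members had an adjusted p under 0.05, as did 0 of all 11590 genes tested (background 0%). At an unadjusted p under 0.05, 9 cytosolic members were higher and 0 lower, and 0 mitochondrial members were higher and 1 lower. Over all genes tested, 5.37% were higher and 7.76% lower at that threshold, 13.1% in all. Among cytosolic members 15 of 20 had a log2 fold change above 0, with a median of 0.20 on the log2(FPKM + 1) scale, and among mitochondrial members 8 of 17, with a median of -0.03. The background was 44.2% of genes above 0, 55.8% below 0 and a median of -0.02. In bulk RNA a change in the number of cells of a type and a change in RNA per cell cannot be told apart. Without the library labelled cKO replicate 1, 3 members passed the adjusted threshold, namely *Aars*, *Sars* and *Nars*, where 2.9% of 11522 genes did. Without control replicate 3 the share of all genes was 0.0174% and 0 members passed, and without any other single library both were 0.

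The count of members higher at an unadjusted p under 0.05 was read against its own background in each setting. It was 11 without cKO replicate 1, where 9.3% of all genes tested were higher, 7 without cKO replicate 2 (3.38%) and 6 without cKO replicate 3 (3.51%). It was 7 without control replicate 1 (3.23%), 6 without control replicate 2 (3.94%) and 10 without control replicate 3 (6.43%). With a variance trend in limma it was 11 (5.27%). In each of these settings the share of the 37 members was above the share of all genes.

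**Figure D2:**
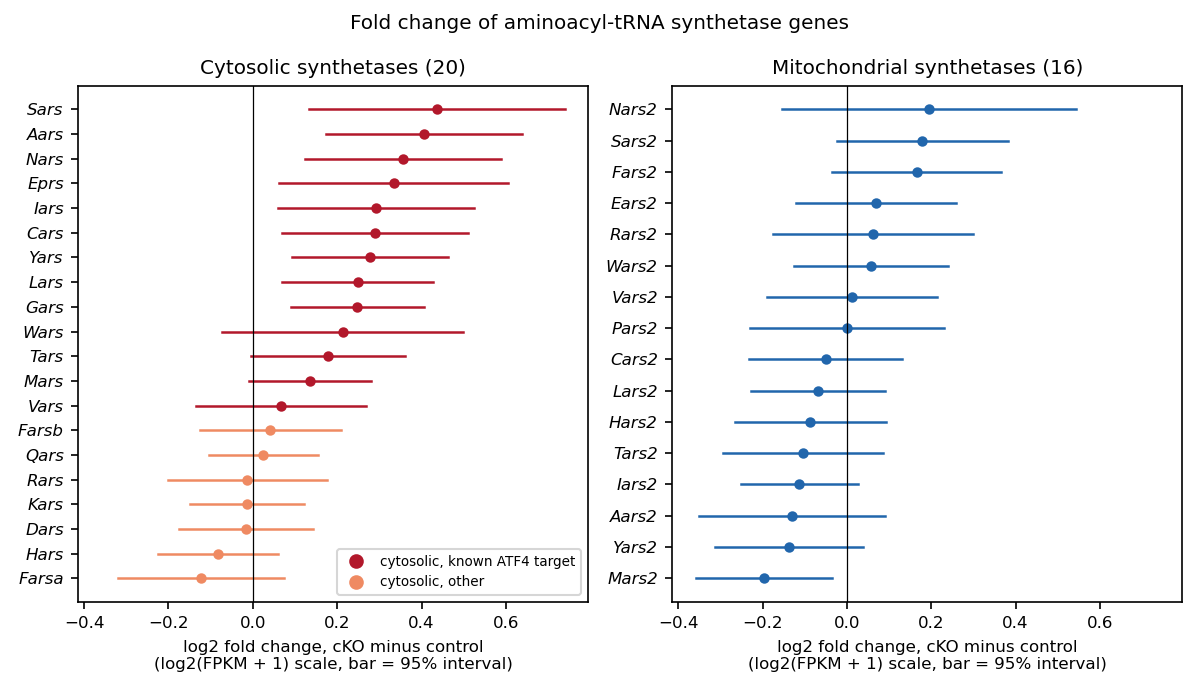
Log2 fold change (cKO minus control) of the synthetase genes, with 1 mitochondrial gene left out, on the log2(FPKM + 1) scale, with points as estimates and bars as 95% intervals of limma's moderated test. The 13 cytosolic genes known as ATF4 targets (dark red) all lie above 0, from 0.07 to 0.44, and the mitochondrial genes (blue) lie from -0.20 to 0.20.

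Among the 13 cytosolic genes known as ATF4 targets, all 13 had a log2 fold change above 0 and the median was 0.28. The 7 other cytosolic genes had a median of -0.01, with 2 above 0. At an unadjusted p under 0.05, 9 of the 13 were higher and 0 of the 7 were, against 5.37% of all genes. In 10 of the 13, and in 1 of the 7, every library labelled cKO was above every control, where 6.51% of all genes tested showed this. The split follows textbook knowledge of ATF4 targets and was made with earlier results of these libraries known.

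*Sars*, the serine enzyme, had the largest fold change of the 37 members. Its FPKM was 69.2, 68.4 and 76.2 in control libraries 1, 2 and 3, and 79.8, 100.3 and 112.6 in the cKO-labelled libraries. All 3 cKO libraries were above the controls, cKO replicate 1 by a small margin. The mean was 71.2 ± 4.30 (SD, n = 3) and 97.6 ± 16.6 (SD, n = 3), a log2 fold change of 0.44 (standard error, SE, 0.13, limma adjusted p = 0.312). With each library left out in turn it ran from 0.33 (without cKO replicate 3, limma adjusted p = 0.671) to 0.57 (without cKO replicate 1, limma adjusted p = 0.035).

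*Aars*, the alanine enzyme, followed the same order of libraries. It stood at 77.9, 76.5 and 83.2 FPKM in the controls and at 91.3, 114.4 and 111.5 in the cKO-labelled libraries, so the groups did not overlap. Its log2 fold change was 0.41 (SE 0.10, limma adjusted p = 0.312). With each library left out in turn it ran from 0.35 (without cKO replicate 2, limma adjusted p = 0.596) to 0.51 (without cKO replicate 1, limma adjusted p = 0.031). *Aars* shares 15.1% of its annotated exon bases with other genes, mainly *Exosc6* on the same strand, so part of its reads may belong to either gene.

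*Nars*, the asparagine enzyme and the second most abundant member, stood at 118.9, 113.9 and 123.9 FPKM in the controls. In the cKO-labelled libraries it stood at 132.1, 162.6 and 164.6, again with no overlap. The log2 fold change was 0.36 (SE 0.10, limma adjusted p = 0.312), with a range from 0.30 (without cKO replicate 3, limma adjusted p = 0.671) to 0.46 (without cKO replicate 1, limma adjusted p = 0.035) when a library was left out. *Asns*, which makes asparagine, stood at 58.5, 50.6 and 71.6 FPKM in the controls and at 75.1, 110.0 and 102.6 in the cKO-labelled libraries.

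*Gars*, the most abundant member and the glycine enzyme of both compartments, was at 131.8, 124.9 and 129.9 FPKM in the controls and at 144.6, 153.9 and 161.6 in the cKO-labelled libraries. The groups did not overlap and lay closer together than for *Nars*, with a log2 fold change of 0.25 (SE 0.07, limma adjusted p = 0.312). Glycine is the most frequent residue of collagen, the main product of osteoblasts.

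**Figure D3:**
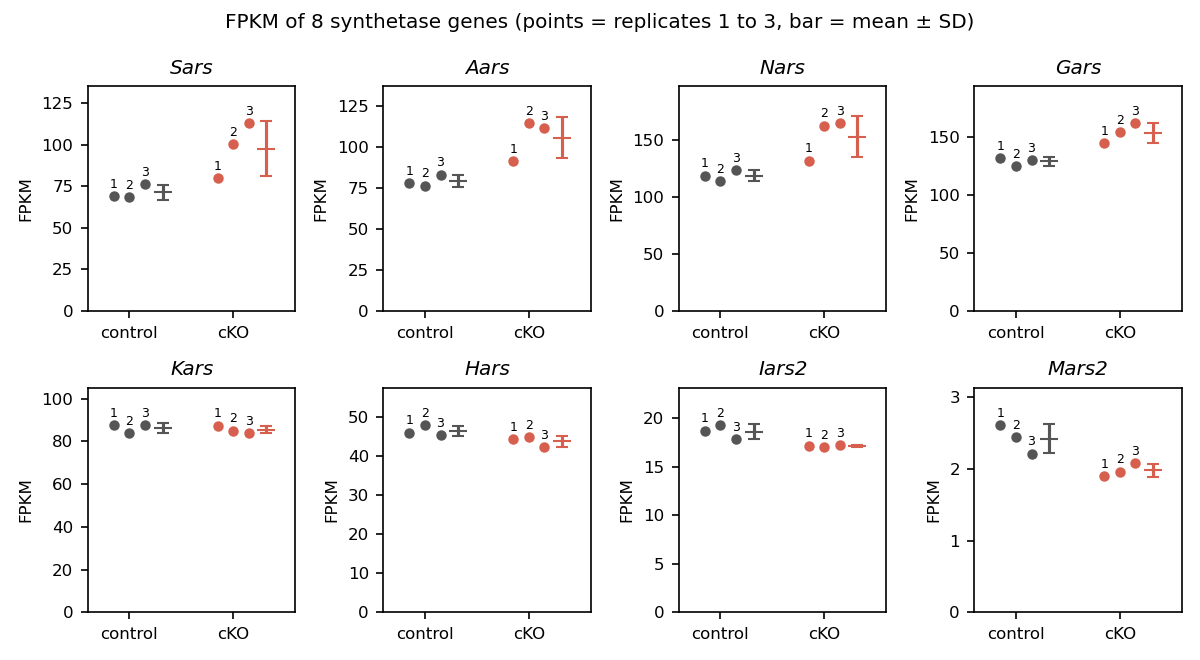
FPKM of 8 synthetase genes in each library (points numbered by replicate) with the mean and SD of each group (n = 3) beside them. In *Sars*, *Aars*, *Nars* and *Gars* all cKO points lie above all control points with cKO replicate 1 the lowest of them, *Kars* overlaps, and in *Hars*, *Iars2* and *Mars2* all cKO points lie below.

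Of the remaining members with an unadjusted p under 0.05, *Eprs* was the only one whose groups overlapped. This bifunctional enzyme stood at 56.0, 53.3 and 62.7 FPKM in the controls and at 61.7, 79.4 and 77.3 in the cKO-labelled libraries, where replicate 1 was below control replicate 3. Its log2 fold change was 0.33 (SE 0.11). *Iars*, the isoleucine enzyme, was at 34.3, 34.5 and 36.6 FPKM in the controls and at 38.0, 43.2 and 49.1 in the cKO-labelled libraries, a log2 fold change of 0.29. *Cars*, the cysteine enzyme, was at 38.7, 34.4 and 37.1 against 39.8, 47.5 and 48.5 FPKM, also 0.29. In both genes cKO replicate 1 exceeded the highest control by a small margin. *Yars*, the tyrosine enzyme, was at 43.9, 44.9 and 47.0 FPKM in the controls and at 50.1, 58.8 and 56.6 in the cKO-labelled libraries. *Lars*, the leucine enzyme, was at 28.8, 28.8 and 31.1 against 32.4, 36.9 and 36.8 FPKM. The log2 fold changes were 0.28 for *Yars* and 0.25 for *Lars*, and the adjusted p of these 5 genes was between 0.312 and 0.321 in limma's test.

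The other 4 known ATF4 targets did not reach an unadjusted p of 0.05. *Tars*, the threonine enzyme, and *Mars*, the methionine enzyme, had no overlap between the groups and log2 fold changes of 0.18 and 0.14. *Tars* in cKO replicate 1, at 65.6 FPKM, stood only just above control replicate 3 at 65.5 FPKM. The end of *Mars* overlaps the end of the stress gene *Ddit3*, on the opposite strand, over 68 exon bases, 1.99% of its exons. *Wars*, the tryptophan enzyme, had its lowest FPKM in cKO replicate 1 (16.7) and its highest in cKO replicates 2 and 3 (21.6 and 23.4), against 17.1 to 17.9 in the controls. *Vars*, the valine enzyme, showed the same order, with 24.2, 28.1 and 29.5 FPKM in the cKO-labelled libraries against 25.0 to 26.5 in the controls. The log2 fold change was 0.21 for *Wars* and 0.07 for *Vars*, and both 95% intervals included 0.

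The promoters of members were searched for the core of the CEBP-ATF response element, the sequence that ATF4 binds together with a C/EBP partner, because the genes listed as its targets were those that lay on the same side of 0. The search took TGATGNAA on either strand in RefSeq promoter windows of GRCm38.p6, each from 250 bases before to 50 bases after a gene's start. Of the 37 members 27 had a window. The motif was found in 5 of 13 cytosolic genes (*Aars*, *Gars*, *Iars*, *Tars* and *Yars*) and in 0 of 14 mitochondrial genes, and it was found in 3.97% of all 32851 windows. A member counted when any window of the gene held the motif, while the 3.97% counts single windows, so these shares differ in unit. The 5 genes are all among the known ATF4 targets, and all had higher values in every library labelled cKO than in every control. Of the 13 listed targets 10 showed this, and of all genes tested 6.51%. The search was made because the listed targets lay above 0, so this separation lends no support to the motif. *Sars*, *Mars* and *Qars*, whose windows held no motif, were also higher in every library labelled cKO than in every control. The listed target *Eprs* had a window without the motif too, and its groups overlapped. No window was available for the listed targets *Cars*, *Lars*, *Nars*, *Vars* and *Wars*. A site of each of the 5 genes is shown 5′ to 3′ along the strand of the gene, in 30 bases, with the motif in capitals. The letters in capitals are alike because the search chose them. TTGCATCA and TTTCATCA are matches on the opposite strand.
Aars, chr8:111033840-111033869, plus strand: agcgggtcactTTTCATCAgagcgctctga
Gars, chr6:55037960-55037989, plus strand: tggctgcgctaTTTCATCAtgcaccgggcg
Iars, chr13:49682126-49682155, plus strand: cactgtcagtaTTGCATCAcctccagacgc
Tars, chr15:11399655-11399684, minus strand: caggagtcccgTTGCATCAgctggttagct
Yars, chr4:129189895-129189924, plus strand: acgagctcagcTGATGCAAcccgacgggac
The motif began 30 bases before the RefSeq start in *Gars* and 15 bases before it in *Tars*. It began at base 10 of the transcript in *Aars*, at base 8 in *Iars* and at base 4 in *Yars*. The sites shown of *Aars*, *Iars* and *Yars* lie in annotated exons of these genes in GENCODE release M21, and those of *Gars* and *Tars* do not. A match of letters is a description and not evidence of binding.

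The wider promoters of *Gars* and *Sars* show a member with a match and the member with the largest fold change, in whose window the letters of the motif did not occur. Both are the 250 bases before the RefSeq start, read along the gene, with the motif in capitals.
Gars promoter, chr6:55037751-55038000, plus strand: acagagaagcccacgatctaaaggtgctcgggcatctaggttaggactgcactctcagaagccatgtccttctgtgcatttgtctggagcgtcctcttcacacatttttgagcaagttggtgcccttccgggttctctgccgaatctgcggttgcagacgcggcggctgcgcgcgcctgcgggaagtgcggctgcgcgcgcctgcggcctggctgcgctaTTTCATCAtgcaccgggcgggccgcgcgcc
Sars promoter, chr3:108445260-108445509, minus strand: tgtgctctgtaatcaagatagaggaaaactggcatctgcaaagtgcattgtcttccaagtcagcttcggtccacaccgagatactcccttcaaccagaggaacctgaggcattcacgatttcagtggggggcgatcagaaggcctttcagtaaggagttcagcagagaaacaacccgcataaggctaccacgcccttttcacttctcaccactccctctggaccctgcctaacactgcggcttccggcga
In GENCODE release M21 (build GRCm38) the annotated gene of *Gars* spans chr6:55038007-55079500 and that of *Sars* chr3:108424865-108445209. The release used by the authors is not given in the sources used here.

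The 7 cytosolic genes outside the list of ATF4 targets lay close to 0. *Kars*, the lysine enzyme of both compartments, was at 87.7, 83.8 and 87.4 FPKM in the controls and at 87.3, 85.0 and 84.0 in the cKO-labelled libraries. Its log2 fold change was -0.01 with a 95% interval from -0.15 to 0.12. *Qars*, the glutamine enzyme, varied least, with 58.8 to 60.7 FPKM in the controls and 60.7 to 61.0 in the cKO-labelled libraries. These *Qars* values did not overlap, but the log2 fold change was 0.02 (95% interval -0.10 to 0.15). *Dars* (aspartate) had a log2 fold change of -0.02, *Rars* (arginine) one of -0.01 and *Farsb* one of 0.04. *Hars*, the histidine enzyme, was lower in every library labelled cKO, with 44.4, 44.9 and 42.2 FPKM against 46.0, 48.0 and 45.4 in the controls. Its log2 fold change was -0.08 (95% interval -0.22 to 0.06), and 11.8% of all genes tested lay lower without overlap. *Farsa* had the lowest value of the class, a log2 fold change of -0.12 (SE 0.08, limma adjusted p = 0.541), with overlapping groups.

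The mitochondrial members had smaller values, and their fold changes scattered around 0, from -0.20 to 0.20. The groups did not overlap in 5 of the 17, higher in 2 (*Sars2* and *Fars2*) and lower in 3 (*Mars2*, *Yars2* and *Iars2*), where 6.51% of all genes tested were higher and 11.8% lower without overlap. *Mars2*, the mitochondrial methionine enzyme, was the one member with an unadjusted p under 0.05. It was at 2.61, 2.44 and 2.21 FPKM in the controls and at 1.90, 1.96 and 2.08 in the cKO-labelled libraries, a log2 fold change of -0.20 (SE 0.07, limma adjusted p = 0.321). At values this near the filter the log2(FPKM + 1) scale understates a fold, and the ratio of the *Mars2* means was 0.82. The unadjusted p of *Mars2* in limma was 0.023, and it was above 0.05 with a variance trend (0.051), the replicate block (0.060), the Y-linked covariate (0.059) and without control replicate 1 or 2 or cKO replicate 1 or 2 (0.057 to 0.084).

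*Iars2*, the mitochondrial isoleucine enzyme, was at 18.7, 19.3 and 17.9 FPKM in the controls and within 17.1 to 17.2 in the cKO-labelled libraries, a log2 fold change of -0.11. *Yars2*, for tyrosine, was at 7.40, 8.02 and 7.41 against 6.28, 6.86 and 7.36 FPKM, with cKO replicate 3 just under the lowest control. On the higher side, *Sars2*, for serine, was at 5.31, 4.76 and 5.59 FPKM in the controls and at 5.81, 6.70 and 5.63 in the cKO-labelled libraries, a log2 fold change of 0.18 (limma adjusted p = 0.419). *Fars2*, for phenylalanine, was at 9.53, 9.74 and 8.96 against 9.90, 10.2 and 12.02 FPKM, a log2 fold change of 0.17. *Nars2*, for asparagine, had the highest log2 fold change of the class, 0.20, but its values overlapped, with 2.55 to 3.70 FPKM in the controls and 3.29 to 4.73 in the cKO-labelled libraries. The other 11 mitochondrial genes also overlapped, and *Pars2*, for proline, was nearest to 0 at 0.00 (95% interval -0.23 to 0.23).

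The 3 sets of genes differed in how the libraries were ordered. For each gene the log2(FPKM + 1) value was taken relative to its mean over the 6 libraries, and the median over a set was read for each library. For the 13 cytosolic ATF4 targets it was -0.16, -0.17 and -0.09 in control libraries 1, 2 and 3. It was -0.03, 0.19 and 0.25 in the cKO-labelled libraries 1, 2 and 3. Replicate 1 of cKO was thus closer to control replicate 3 than to the other cKO libraries. For the 7 other cytosolic genes the medians lay between -0.04 and 0.03, and for the 17 mitochondrial genes between -0.03 and 0.06, and in both sets the groups overlapped.

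The spread within the groups followed this pattern. The coefficient of variation of the 13 targets had a median of 4.17% among the controls and of 10.5% among the cKO-labelled libraries. For the 7 other cytosolic genes it was 4.15% and 3.21%, and for the mitochondrial genes 7.62% and 8.68%. In 15 of the 20 cytosolic genes cKO replicate 1 was the lowest of the cKO libraries, as it was in 7 of the 17 mitochondrial genes.

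**Figure D4:**
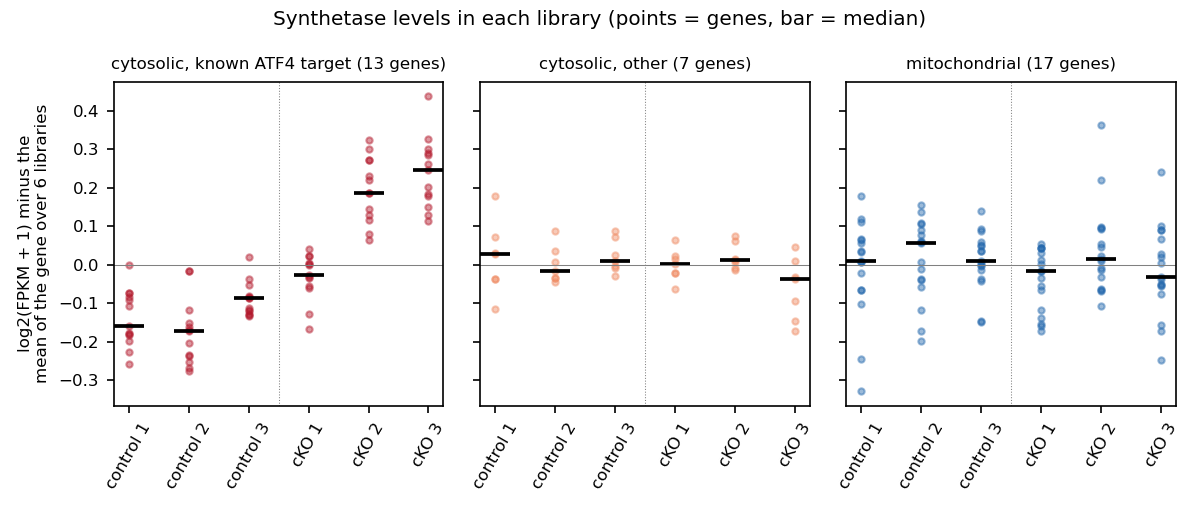
Log2(FPKM + 1) of each synthetase gene minus its mean over the 6 libraries, by library, for 13 cytosolic genes known as ATF4 targets, 7 other cytosolic genes and 17 mitochondrial genes, with black bars as medians. The medians of the first panel go from -0.17 to -0.09 in the controls and from -0.03 to 0.25 in the cKO libraries, and those of the other panels stay within -0.04 to 0.06.

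The cytosolic genes were also grouped by place in the multisynthetase complex and by catalytic class. The log2 fold changes of the 8 complex members centred on 0.08 (median), and those of the 12 genes outside it on 0.23. At an unadjusted p under 0.05 in limma, *Eprs*, *Iars* and *Lars* of the complex were higher, as were 6 genes outside it. Over all genes tested, 5.37% were higher at that threshold. The complex therefore held both high members such as *Eprs* and members near 0 such as *Kars*, *Qars*, *Rars* and *Dars*. Of its members only *Eprs*, *Iars*, *Lars* and *Mars* are on the list of ATF4 targets. Outside the complex all but *Farsa*, *Farsb* and *Hars* are on that list. The medians inside and outside the complex are thus mixed with the ATF4 split, and neither grouping was tested apart from it. *Eprs*, which joins the glutamate and proline enzymes, was counted as a whole in catalytic class I. The 10 genes so placed in class I had a median of 0.23 and the 10 of class II one of 0.11. The highest (*Sars*) and the lowest (*Farsa*) fold change both belonged to class II. The non-enzymatic parts of the complex, *Aimp1*, *Aimp2* and *Eef1e1*, had log2 fold changes of 0.05, -0.09 and 0.07, and 0 of the 3 had an unadjusted p under 0.05.

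When each cytosolic gene was set against the mitochondrial gene for its amino acid, the log2 ratio of FPKM was higher on average in the cKO-labelled libraries for 15 of 17 pairs. The ratio was higher without overlap in 7 pairs, for alanine, isoleucine, leucine, methionine, tyrosine, cysteine and proline, and lower without overlap in 1, phenylalanine. Of all single genes tested, 44.2% had a log2 fold change above 0, and 6.51% were higher and 11.8% lower without overlap. No such share was taken for ratios of other genes. The largest difference was that of alanine, with a mean log2 ratio of 4.026 in the controls and 4.596 in the cKO-labelled libraries. For phenylalanine (*Farsa* to *Fars2*) it was 1.498 and 1.189. *Farsb*, the gene of the other subunit, was not paired, so the phenylalanine result holds for *Farsa* only. The FPKM of *Farsb* overlapped between the groups, at 19.0 to 22.0 in the controls and 20.7 to 21.4 in the cKO-labelled libraries. A two-sided exact permutation test of each pair gave p = 0.1 for these 8, the smallest p that 3 libraries against 3 allow, and 0.212 after Benjamini-Hochberg adjustment over the 17 pairs. The pairs for glutamate and proline share *Eprs*. The cytosolic genes of the 7 higher pairs are all listed ATF4 targets, so these counts are not separate from the differences described above.

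Other genes of tRNA charging showed little of this difference. Of 9 related genes, among them *Mtfmt*, which formylates the mitochondrial initiator tRNA, and *Xpot*, which exports tRNA from the nucleus, 0 had an unadjusted p under 0.05. *Xpot* had the highest log2 fold change of them, 0.21 (95% interval -0.03 to 0.45). Mitochondria have no tRNA synthetase of their own for glutamine. They convert glutamate on the tRNA with the amidotransferase of *Qrsl1*, *Gatb* and *Gatc*, whose log2 fold changes were -0.20, 0.12 and 0.16. Of 5 cytosolic elongation factor genes 0 reached an unadjusted p under 0.05, and *Eef1a1*, which delivers charged tRNA to the ribosome, had a log2 fold change of 0.14 (95% interval -0.04 to 0.32). Of 9 mitochondrial translation factors *Mrrf* was higher at that threshold, with a log2 fold change of 0.22, and *Tufm*, the mitochondrial counterpart of *Eef1a1*, was lower, with -0.18. Over all genes tested, 5.37% were higher and 7.76% lower at that threshold. Without overlap between the groups, *Mtfmt*, *Qrsl1*, *Tufm* and the translation factor *Gfm1* were lower, as were 11.8% of all genes tested. *Mrrf* was higher without overlap, as were 6.51% of all genes tested. The 78 mitochondrial ribosomal protein genes had a median of -0.03, the same to 2 decimals as the mitochondrial synthetases.

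Genes of the amino acid response stood higher in the same libraries. *Atf4* itself was at 175.1, 171.3 and 186.9 FPKM in the controls and at 200.4, 279.7 and 270.9 in the cKO-labelled libraries, with replicate 1 again the lowest of the 3. Of 19 genes of the integrated stress response 11 were higher at an unadjusted p under 0.05 and 0 lower, with a median log2 fold change of 0.48, and of 12 amino acid synthesis genes 9 were higher and 0 lower, with a median of 0.52, against 5.37% higher and 7.76% lower over all genes tested. After adjustment over all genes 0 of either list passed in limma. The summed FPKM of the 12 synthesis genes was 513, 452 and 594 in the controls and 594, 787 and 803 in the cKO-labelled libraries, so control replicate 3 and cKO replicate 1 were level. The 4 kinases that start the response by phosphorylating eIF2α, *Eif2ak1* to *Eif2ak4*, had log2 fold changes between -0.08 and -0.03.

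**Figure D5:**
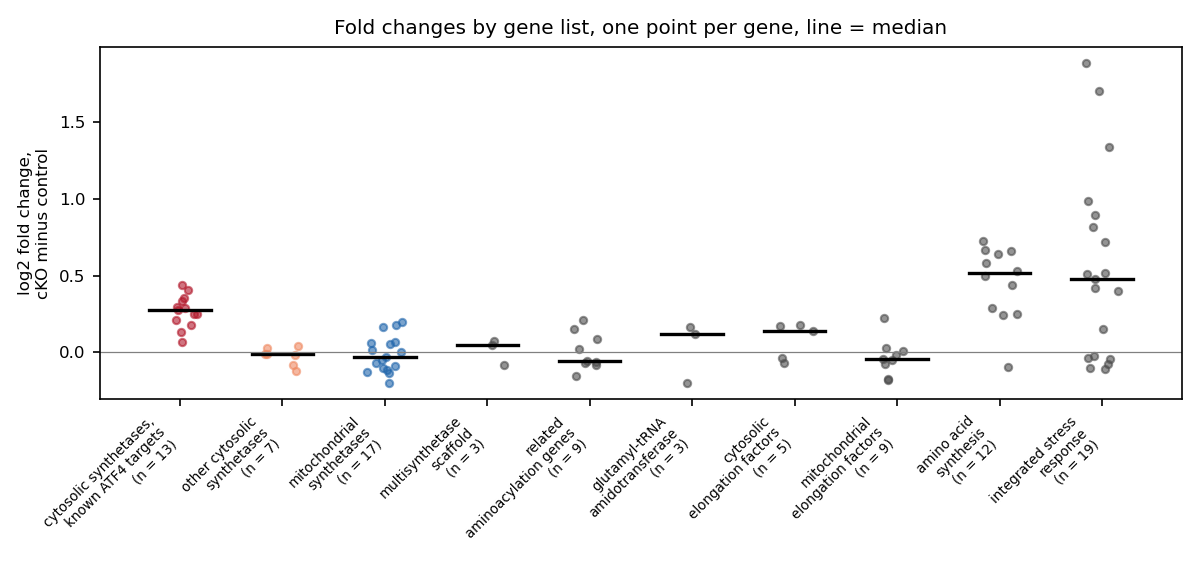
Log2 fold change (cKO minus control, log2(FPKM + 1) scale) of each tested gene in 10 lists, with 1 point per gene and a line at the median. Cytosolic synthetases known as ATF4 targets lie above 0 with a median of 0.28, below the medians of amino acid synthesis (0.52) and of the integrated stress response (0.48), while the medians of the 2 other synthetase sets lie at -0.01 and -0.03.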

How the data were processed

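RNA of 6 libraries was sequenced with 150 bp paired-end reads. The authors mapped reads to the mouse transcriptome with HISAT2 (build GRCm38 in the submitters' processing notes, which also name DESeq) and deposited FPKM values, rounded to 2 decimals, in a table named as raw counts. The annotation release and the FPKM program are not given in the sources used here. FPKM values are not counts, so no count model was used. Values were taken as log2(FPKM + 1), rows that reached an FPKM of 1 in 3 or more libraries were kept, and groups were compared by the moderated test of limma 3.58.1 (R 4.3.3, two-sided, without a variance trend) with Benjamini-Hochberg adjustment over all 11590 rows. Fold changes on this scale understate the change of low genes. Depth is unknown, so no counting error is given. The test was checked on simulated data: with 200 genes changed in this comparison, over 11590 genes, it called 0% at 1.2-fold, 61% at 1.5-fold and 89% at 2-fold after adjustment. It also called 0, 4 and 16 unchanged genes at these folds. The simulated errors were independent between genes, so a shift shared by many genes of a library was not simulated. Members, lists and tests were chosen with earlier results of these data known. All members enter the counts, and some items are not reported here; values per library are given for those with an unadjusted p under 0.05, the extremes of each class and examples; other genes come from fixed lists. Alternatives were the pseudocount, the filter, the variance trend, scaling, a block for the replicate number, a covariate for Y-linked expression, and leaving out a library at a time.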

Additional observations from a re-analysis of the deposited data

How the results depend on the processing

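The number of members with an adjusted p under 0.05 was 0 in every alternative with all 6 libraries and 0 to 3 with a library left out, while that of all genes was 0 and then 0 to 334. The largest numbers came without cKO replicate 1. Members higher at an unadjusted p under 0.05 numbered 6 to 12. In either direction they numbered 10, 9 to 13 in the alternatives with all 6 libraries and 6 to 11 with a library left out, the fewest without control replicate 2. The 1 lower member became 2 with no filter, 0 with limma-trend, 0 with the replicate block, 0 with Y-linked expression as a covariate and 0 to 1 with a library left out. The cytosolic median stayed positive, from 0.14 to 0.25 with a library left out. The mitochondrial median was -0.051 to 0.016 with a library left out and turned positive without cKO replicate 1. All 13 ATF4 targets stayed above 0 in each alternative, a count added after seeing the data. Members near 0 changed sign. *Rars* was 0.00060 with median scaling. *Pars2* was -0.010 with rescaling to a common sum and -0.019 with the covariate, where *Dars* was 0.0070. With a library left out, the ranges were -0.048 to 0.057 for *Rars*, -0.050 to 0.079 for *Pars2*, -0.057 to 0.016 for *Dars*, -0.0058 to 0.095 for *Farsb*, -0.044 to 0.12 for *Rars2*, -0.043 to 0.074 for *Vars2*, -0.0036 to 0.099 for *Wars2* and -0.096 to 0.016 for *Cars2*. Same-numbered libraries are not stated to be paired, and the deviations of same-numbered libraries correlated at 0.03, -0.17 and 0.21. The fit with a replicate block changed no adjusted call, with 9 members higher at an unadjusted p under 0.05. FPKM hides depth, which limits what can be said of the mitochondrial genes with low values.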

Other observations

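*Wars*, the tryptophan enzyme, is also known as an interferon-induced gene, and it was set beside a list of 10 interferon response genes. Of these, 9 were in the table and 8 passed the filter. All 8 had a log2 fold change above 0 with a median of 0.30, and *Irf7* was the one with an unadjusted p under 0.05 in limma's test. Of all genes tested, 44.2% lay above 0 and 5.37% were higher at that threshold. The summed FPKM of the list was 315, 230 and 247 in control libraries 1, 2 and 3 and 344, 342 and 275 in the cKO-labelled libraries. *Wars* was at 17.9, 17.3 and 17.1 FPKM in the controls and at 16.7, 21.6 and 23.4 in the cKO-labelled libraries, a different order. Most of the interferon sum was *Isg15*, at 172.9 FPKM in control replicate 1 and 148.9 in cKO replicate 3. The part of interferon in the *Wars* values was not tested.

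*Mars* and *Ddit3* meet at their ends on opposite strands, and their values differed in size in the same libraries. *Ddit3*, the stress factor CHOP, was at 24.8, 22.5 and 34.8 FPKM in the controls and at 36.8, 135.9 and 145.1 in the cKO-labelled libraries, while *Mars* was at 32.3, 34.5 and 32.9 and at 35.4, 36.5 and 37.8 FPKM. The threonine gene *Tars3*, which the rule for members did not take in, stood at 4.77, 3.46 and 4.41 FPKM in the controls and at 3.78, 4.37 and 3.69 in the cKO-labelled libraries. Its log2 fold change was -0.07 where that of *Tars* was 0.18.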
